A study of Mus musculus with 4 samples.

Results

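The BCL2 family genes described here are regulators of the mitochondrial route to apoptosis, chosen by name from a list of 10 genes and measured in embryonic mouse cortex. A gene was included if a row of the deposited array table carried its symbol alone. Among several rows of a gene, 1 was to be selected on its mean over the 4 arrays. Each of 9 genes had exactly 1 such row, so the mean over the arrays chose nothing among them, and the 9 are part of 19938 genes with a single symbol. Bax, the remaining effector on the list, is not analysed here. By role the 9 genes are 5 BH3-only genes (Bbc3, Bcl2l11, Pmaip1, Bmf and Hrk), 1 effector (Bak1) and 3 protective genes (Bcl2, Bcl2l1 and Mcl1).

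Dorsal cortex was taken at E18.5 (embryonic day) from 2 mutants and 2 controls, with 1 array each. Per the labels, the mutants carry Mek1fl/fl, lack Mek2 (Mek2-/-) and bear NestinCre, in which regulatory sequence of Nestin drives Cre recombinase in progenitors of neurons and glia. The controls carry Mek1fl/wt and also lack Mek2, so Mek2 loss is shared by both groups although the design text calls the controls wild type. NestinCre is named for the mutants only, and what it does by itself and what Mek1 loss does cannot be told apart. Values are the deposited log2 expression levels, which the authors had normalized by RMA.

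Apoptosis through mitochondria is set by the balance of 3 kinds of BCL2 family protein. Effector proteins open the outer mitochondrial membrane, protective proteins hold them back, and BH3-only proteins neutralise the protective ones or activate the effectors. ERK, the kinase that MEK1 and MEK2 activate, is known to phosphorylate the BH3-only protein BIM and so mark it for degradation. That step acts on protein, and these arrays measure RNA alone.

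The largest differences among the 9 genes belonged to a pair of BH3-only genes and lay in opposite directions, and 1 of them passed the test. Bbc3, which encodes PUMA, a BH3-only protein that binds all the main protective members, rose 1.41-fold in the mutants. Bcl2l11, which encodes BIM, was 1.27-fold lower in the mutants and did not pass the test. The effector and the 3 protective genes differed by no more than 0.11 on the log2 scale.

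Bbc3 (feature 10550290) was at 7.74 and 7.67 log2 units in the mutants, against 7.16 and 7.25 in the controls. Both mutant arrays lay above both control arrays, with a gap several times the distance between arrays of a group. The group levels were 7.70 ± 0.05 in mutants and 7.21 ± 0.06 in controls (SD, n = 2 each), a difference of 0.50 ± 0.06 (SE) with a 95% interval of 0.34 to 0.65. It passed the test over all genes (limma, adjusted p = 0.0428), where 1.02% of the 13956 genes tested were called, 0.0143% as higher and 1.01% as lower in the mutants. By size, Bbc3 had the 20th highest difference of all genes tested. The direction held in all of the 12 other fits that tested it, with differences of 0.45 to 0.54, but 7 of them lost the call, and the adjusted p ran from 0.0118 to 0.318. The call was lost without control 1 (adjusted p = 0.318 in limma), without control 2 (adjusted p = 0.205 in limma) and when dim genes were kept (adjusted p = 0.109 in limma).

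Bcl2l11 (feature 10475866) was at 7.11 and 7.06 in the mutants, against 7.42 and 7.44 in the controls. Here both mutant arrays lay below both controls, and the arrays within each group were close together. The levels were 7.08 ± 0.04 in mutants and 7.43 ± 0.02 in controls (SD, n = 2 each). The difference of -0.34 ± 0.06 (SE), with a 95% interval of -0.49 to -0.20, had an unadjusted p of 0.00139 and missed the threshold over all genes (limma, adjusted p = 0.0791). Over the 12 other fits that tested it the adjusted p ran from 0.05004 to 0.483, and the difference from -0.37 to -0.31. BIM, like PUMA, binds all the main protective members and can activate the effectors directly. At an unadjusted p under 0.05, Bbc3 and Bcl2l11 were 2 of the 9 genes in limma, beside 13.4% of all genes tested.

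**Figure D1:**
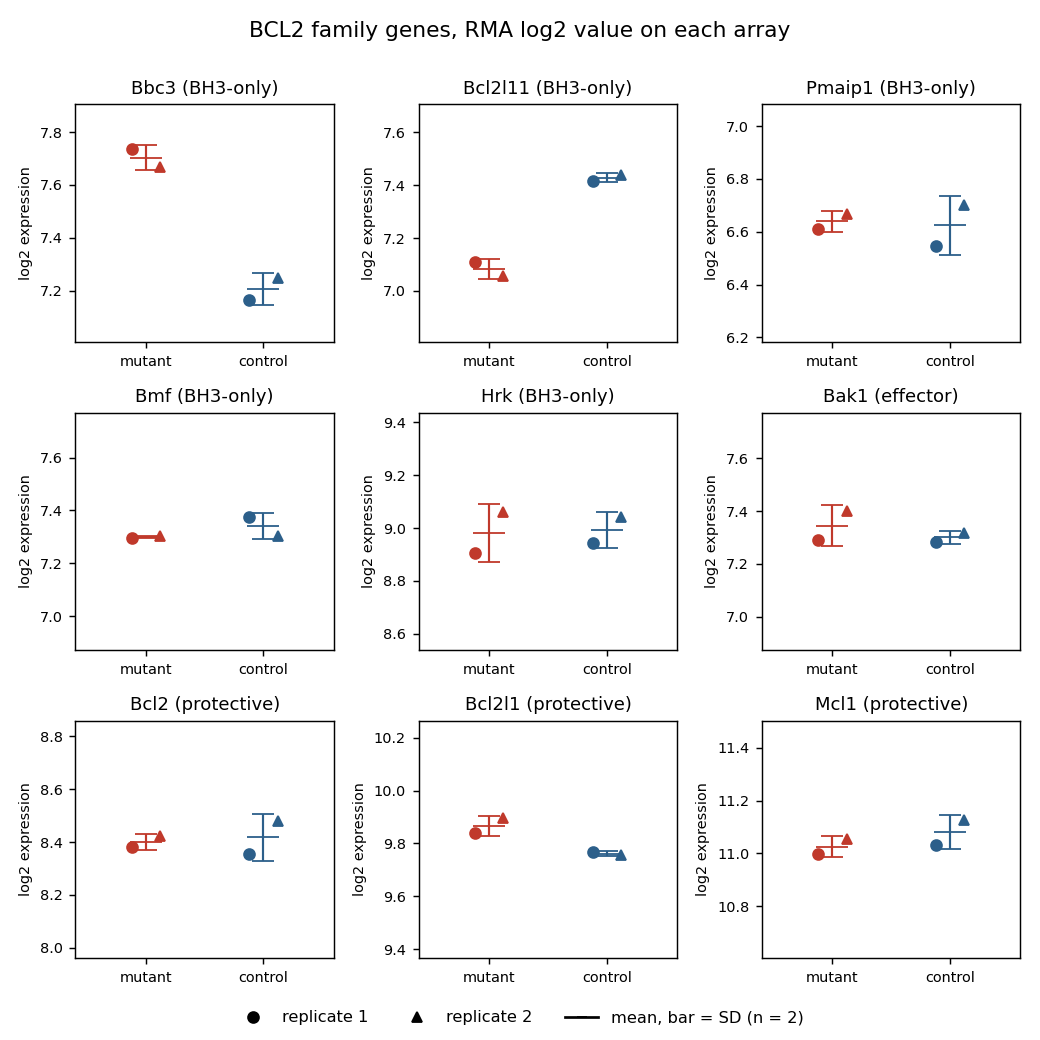
RMA log2 expression of the 9 BCL2 family genes on each array, mutants left and controls right, with the group mean and SD (n = 2). Every panel spans the same height on the log2 axis. Bbc3 lies higher and Bcl2l11 lower on both mutant arrays, whereas the group means of the other 7 genes are at most 0.11 apart.

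The other 3 BH3-only genes differed by no more than 0.04 between the groups. Pmaip1, which encodes NOXA, a partner mainly of MCL1, was at 6.61 and 6.67 in mutants and at 6.55 and 6.70 in controls. Its mutant arrays lay between the controls. Its difference was 0.02, with a 95% interval of -0.17 to 0.20 (limma, adjusted p = 0.963). Bmf, a BH3-only protein held at the cytoskeleton, was at 7.30 on both mutant arrays and at 7.38 and 7.30 in controls. The groups did not overlap, but the gap between mutant 2 and control 2 was far smaller than the distance between the controls. Its difference was -0.04, with a 95% interval of -0.19 to 0.11 (limma, adjusted p = 0.833). Hrk, a BH3-only gene known to be induced in neurons deprived of trophic factor, was at 8.91 and 9.06 in mutants and at 8.94 and 9.04 in controls. Both controls lay between the mutant arrays, and the difference was -0.01, with a 95% interval of -0.21 to 0.19 (limma, adjusted p = 0.978).

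The single effector with values, Bak1, encodes a protein that sits in the outer mitochondrial membrane and forms pores there when activated. It was at 7.29 and 7.40 in mutants and at 7.28 and 7.32 in controls, so the groups overlapped. The difference was 0.04, with a 95% interval of -0.12 to 0.21 (limma, adjusted p = 0.838).

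None of the 3 protective genes passed the test. Bcl2, the founding member of the family, was at 8.38 and 8.42 in mutants and at 8.35 and 8.48 in controls, a difference of -0.02 with a 95% interval of -0.19 to 0.15 (limma, adjusted p = 0.957). Mcl1, a short-lived protein that neural progenitors need for survival, was at 11.00 and 11.05 in mutants and at 11.03 and 11.12 in controls. Its groups overlapped too, with a difference of -0.05 and a 95% interval of -0.21 to 0.10 (limma, adjusted p = 0.790). Bcl2l1 encodes BCL-XL, on which young neurons depend, and was at 9.84 and 9.89 in mutants against 9.77 and 9.75 in controls. Its mutant arrays were both higher, by a small margin. The difference of 0.11 ± 0.06 (SE), with a 95% interval of -0.04 to 0.25, did not pass (limma, adjusted p = 0.500).

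By role, the medians were -0.01 for the 5 BH3-only genes, 0.04 for the effector and -0.02 for the 3 protective genes, on the log2 scale of the difference. The median over all 9 genes was -0.01, beside 0.01 for all genes tested. The BH3-only genes had the widest range, from -0.34 to 0.50, because it holds both Bcl2l11 and Bbc3. The groups did not overlap for 4 of the 9 genes (44.4%), beside 44.3% of all genes tested, so that count is no more than the background. Apart from Bbc3 and Bcl2l11, the 95% intervals of the 7 genes lay between -0.21 and 0.25. Changes larger than those bounds lie outside these intervals, which are not adjusted for the number of genes.

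**Figure D2:**
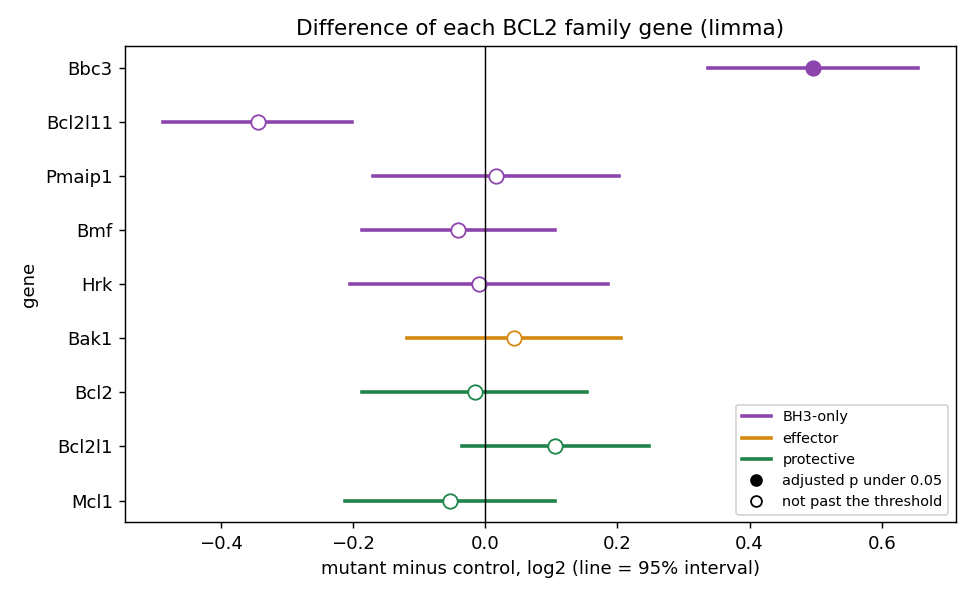
Difference between mutants and controls in log2 units for each BCL2 family gene, with its 95% interval from the limma fit, coloured by role. The intervals of Bbc3 (0.34 to 0.65) and Bcl2l11 (-0.49 to -0.20) do not reach 0, and those of the other 7 genes do.

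Bbc3 and Bcl2l11 are both known targets of FOXO transcription factors, so their promoter windows were read for the FOXO element. The windows are those of RefSeq on GRCm38.p6, from 250 bases before to 50 bases after a start site, and 8 of the 9 genes matched, with 15 windows. The motif searched was GTAAACA on both strands, a choice made with the results known. Since these genes were picked by their results and are known targets, the matches lend no support to a part of FOXO factors. Of the 15 windows 2 held it, 1 of 3 for Bbc3 and 1 of 2 for Bcl2l11, as did 3.65% of the 32851 windows of all genes. That share is per window, and the share per gene was not counted. The genes share the element but differ in opposite directions. Both windows are shown because they belong to the pair of genes that stood apart, and the match is in capitals. In Bbc3 (chr7:16310011-16310310, plus strand) the match lies on the minus strand and is therefore printed as its reverse complement, starting 167 bases before the start site. In Bcl2l11 (chr2:128125788-128126087, plus strand) it starts 227 bases before.
Bbc3: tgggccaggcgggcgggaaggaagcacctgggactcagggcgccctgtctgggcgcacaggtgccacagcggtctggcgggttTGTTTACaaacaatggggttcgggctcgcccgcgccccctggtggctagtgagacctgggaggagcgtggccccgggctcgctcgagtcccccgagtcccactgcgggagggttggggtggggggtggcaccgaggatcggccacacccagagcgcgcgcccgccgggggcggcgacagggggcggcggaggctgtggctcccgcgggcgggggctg
Bcl2l11: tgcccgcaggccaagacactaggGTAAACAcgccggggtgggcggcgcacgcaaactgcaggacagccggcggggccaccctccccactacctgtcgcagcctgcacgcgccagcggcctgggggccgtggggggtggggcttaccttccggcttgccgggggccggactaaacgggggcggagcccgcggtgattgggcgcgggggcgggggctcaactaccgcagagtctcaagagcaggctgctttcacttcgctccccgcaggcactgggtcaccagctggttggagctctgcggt

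Both windows are rich in G and C (74.7% in Bbc3 and 71.0% in Bcl2l11). The AP-1 element TGANTCA was in none of the 15 windows, beside 7.81% of all windows. The ETS element CCGGAAGT was in 1 window, of Bcl2l1, beside 3.89% of all windows. These matches describe letters in the windows and do not show binding, and the part of FOXO factors in the differences was not tested.

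Genes listed as regulators of BCL2 family genes or proteins, transcription factors and kinases among them, showed no called change. Of that list 2 genes are not analysed here. Of 22 such regulators tested, none passed in either direction in limma, beside 1.02% of all genes tested. At an unadjusted p under 0.05 in limma there were 2, both higher, beside 13.4% of all genes tested. Both mutant arrays lay above both controls in 6 (27.3%, beside 22.8%) and below in 1 (4.55%, beside 21.4%). The median difference was 0.02. The regulators with the smallest p were Ddit3 and Map3k12. Ddit3 encodes CHOP, a stress-induced factor known to raise Bbc3 and Bcl2l11. Map3k12 is the kinase DLK, upstream of JNK in neuronal death. Ddit3 was at 7.59 and 7.70 in mutants and at 7.47 and 7.44 in controls, a difference of 0.19 ± 0.06 (SE; limma, adjusted p = 0.311). Map3k12 differed by 0.16 ± 0.05 (SE; limma, adjusted p = 0.316). In both genes the mutant arrays were higher, by less than the difference of Bbc3. Foxo1, named after its values were seen, was at 7.33 on mutant 1, against 8.07 on mutant 2, 8.07 on control 1 and 8.07 on control 2. Mutant 1 alone was low for Foxo1, and the part of Foxo1 in other differences was not tested. Foxo3 differed by -0.05 and Foxo6 by 0.02, both also named after their values were seen.

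Genes of the p53 pathway, to which Bbc3 and Pmaip1 belong as known targets, showed no called change. Of 24 tested, none passed in limma, beside 1.02% of all genes tested. At an unadjusted p under 0.05 in limma there were 5 (3 higher and 2 lower), beside 13.4% of all genes tested. The median difference was 0.03. The mean was higher in mutants for 17 and lower for 7, beside 7302 higher and 6654 lower of all 13956 genes tested. Another 3 on the list were left out as dim, and 3, Trp53 among them, are not analysed here. The smallest p belonged to Zmat3, an RNA-binding protein induced by p53, at 7.52 and 7.63 in mutants and 7.32 and 7.31 in controls (difference 0.26 ± 0.06, SE; limma, adjusted p = 0.187). Gtse1, a mitotic protein that restrains p53, differed by -0.23 ± 0.08 (SE; limma, adjusted p = 0.343). Both mutant arrays lay above both controls in 7 of the 24 (29.2%, beside 22.8% of all genes tested) and below in 5 (20.8%, beside 21.4%). The part of p53 in the difference of Bbc3 was not tested.

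Downstream of the BCL2 family, the apoptosome and caspase genes gave no call either. Of 18 tested, none passed in limma, beside 1.02% of all genes tested. At an unadjusted p under 0.05 in limma there were 2, both lower, beside 13.4% of all genes tested. Both mutant arrays were below both controls in 8 (44.4%, beside 21.4% of all genes tested) and above in 2 (11.1%, beside 22.8%), and the median difference was -0.06. Casp6, an executioner caspase, was at 7.49 and 7.54 in mutants and at 7.70 and 7.72 in controls, a difference of -0.20 ± 0.06 (SE; limma, adjusted p = 0.236). Xiap, an inhibitor of caspases, differed by -0.15 ± 0.06 (SE; limma, adjusted p = 0.356). The list thus held both a caspase and a caspase inhibitor that were lower on both mutant arrays without passing the test.

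In the rest of the BCL2 family, 7 genes were tested, 3 were left out as dim, and 3 are not analysed here. None of the 7 was called in limma, beside 1.02% of all genes tested, and 0 had an unadjusted p under 0.05, beside 13.4%. Their differences ran from -0.11 to 0.10 with a median of 0.05. Bok, an effector-like member abundant in neurons, was at 9.31 and 9.42 in mutants and at 9.18 and 9.35 in controls (difference 0.10; limma, adjusted p = 0.674). Bcl2l12, a divergent member of the family, differed by -0.11 (limma, adjusted p = 0.536).

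The genes whose values over the 4 arrays lay nearest to those of Bbc3 were Podn, Cacna1g, Tlr12, Cdh18 and Kcnip4. Podn encodes a matrix proteoglycan, Cacna1g a T-type calcium channel, Cdh18 a cadherin and Kcnip4 a partner of potassium channels. After each gene was centred on its own mean, their root mean square distance from Bbc3 was between 0.0244 and 0.0400 log2 units. Their differences ran from 0.46 to 0.53 and none passed in limma (adjusted p between 0.0510 and 0.0716). With 4 arrays this likeness says little more than that the groups differ by a similar amount.

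Markers of glia and of cycling cells were lower on the arrays where Bbc3 was higher and Bcl2l11 lower. Over the 8 cortical neuron markers tested, the mean level was 10.69 and 10.70 in mutants, against 10.62 and 10.56 in controls, with none called in limma (1 at an unadjusted p under 0.05, higher). All 8 had a higher mean in mutants. Both mutant arrays lay above both controls in 5 (62.5%, beside 22.8% of all genes tested) and below in 0. Radial glia and astrocyte markers averaged at most 9.17 in mutants, against at least 10.14 in controls. In limma 7 of 10 were called lower (Slc1a3, Fabp7, Aldoc, Aldh1l1, Tnc, Hopx and Sox9), and both mutant arrays lay below both controls in all 10. Oligodendrocyte precursor markers averaged 6.36 and 6.34 in mutants, against 7.65 and 7.67 in controls. Of these, 3 of 6 were called lower (Pdgfra, Olig1 and Gpr17), and 5 of 6 lay below both controls on both mutant arrays. Cycling cell markers averaged at most 8.11 in mutants, against at least 8.75 in controls. Here 5 of 9 were called lower (Mcm3, Top2a, Mki67, Bub1 and Ccna2), and all 9 lay below both controls on both mutant arrays. Microglial markers averaged 6.97 and 7.03 in mutants, against 7.29 and 7.27 in controls. Fcrls was the 1 of 5 called lower in limma, and both mutant arrays lay below both controls in 4 of the 5. Of all genes tested, 1.01% were called lower and 21.4% had both mutant arrays below both controls. Interneuron markers (9.62 and 9.91 in mutants, 9.78 and 9.87 in controls) and endothelial markers (8.50 and 8.73 in mutants, 8.66 and 8.64 in controls) held no called gene in limma (1 interneuron marker and 0 endothelial markers at an unadjusted p under 0.05). Of 2 red cell markers tested none was called in limma (1 at an unadjusted p under 0.05, lower). Xist, which coats the silenced X in females, was at 4.81 and 11.89 in mutants and at 11.90 and 5.35 in controls, so each group held a male and a female sample, and none of the 4 sex-linked genes tested was called in limma (0 at an unadjusted p under 0.05). Bbc3 and Bcl2l11 separated the groups across both sexes, as did 44.3% of all genes tested. With sex in the fit neither was called (limma, adjusted p = 0.0858 for Bbc3 and 0.192 for Bcl2l11). Fewer cells of a type and less RNA per cell cannot be told apart in bulk tissue, and the part of cell composition in the differences of Bbc3 and Bcl2l11 was not tested. The targeted gene Map2k1 (Mek1) was at 8.50 and 8.73 in mutants and at 8.76 and 8.84 in controls (limma, adjusted p = 0.469). Map2k2 (Mek2) was at 8.57 and 8.64 in mutants and at 8.57 and 8.47 in controls (limma, adjusted p = 0.657), and the sources used here do not say which of their probes lie in deleted parts.

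**Figure D3:**
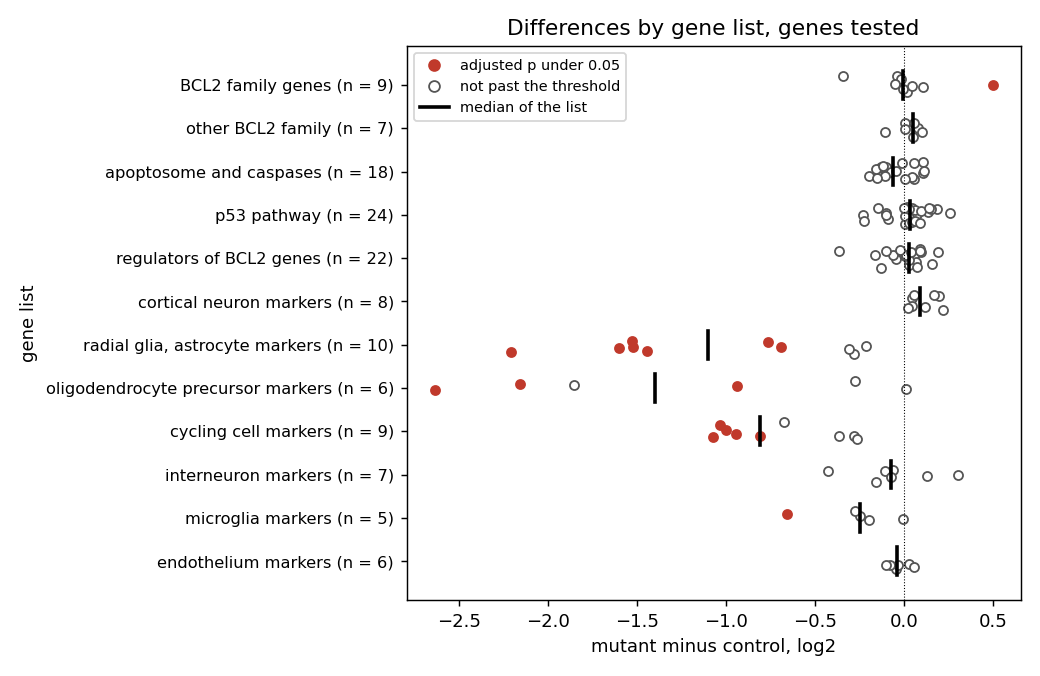
Difference between mutants and controls in log2 units for the tested genes of each list, with filled points for an adjusted p under 0.05 and a bar at the list's median. Bbc3 is the only called gene to the right of 0 among these lists, and the called genes to the left are markers of glia, cycling cells and microglia.

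**Figure D4:**
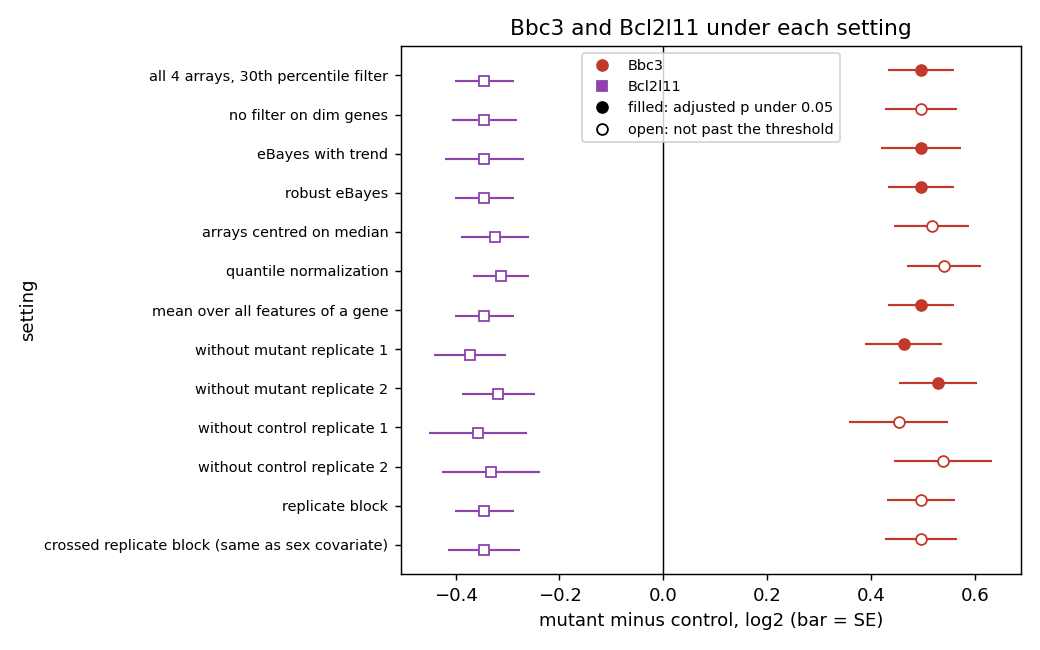
Difference of Bbc3 and of Bcl2l11 in log2 units, with its SE, under the reported setting and the 12 others that tested them. Bbc3 stays between 0.45 and 0.54 and Bcl2l11 between -0.37 and -0.31, while the call of Bbc3 (filled points) is lost in 7 of the 12.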

How the data were processed

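RNA of dorsal cortex (200 ng per array, per the series' design text) was labelled with biotin and measured on single-colour whole-transcript arrays. The deposited table holds log2 expression values that the authors made with RMA, which the submitters' processing notes name. Such values are background-corrected, quantile-normalized and summarised per feature, which hides a shift common to most transcripts and shrinks the folds of dim genes. The range of the values gave the log base, and the RMA version is not given in the sources.

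Of 35557 features, 21789 had 1 gene symbol in the platform annotation, 1621 had several and 12147 had none or were not listed. Symbols were updated by Entrez identifier through RefSeq (21698 matched). The brightest feature per gene left 19938 genes, and those with a mean under the 30th percentile (log2 6.16) were left out, which kept 13956 genes and all 9 members.

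The groups were compared by a two-sided moderated test (limma 3.58.1, R 4.3.3) without covariates. It had 2 residual degrees of freedom plus a prior of 3.31. Benjamini-Hochberg adjustment ran over all genes tested, with a threshold of 0.05. The fit was tested on simulated data. Differences are mutant minus control with the moderated SE. Intervals are 95% and cover 1 gene at a time. The labels do not tie arrays to separate embryos, but by Xist each group held a male and a female sample. The 2 arrays of a group therefore do not share 1 embryo. The p-values set a difference against a variance that combines the spread between these samples with a prior taken from all genes tested. In that spread, differences between embryos, sex among them, and technical ones are mixed. Precision is limited by the number of arrays. No detection calls were at hand.

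The members and the 13 other gene lists (154 entries) were chosen from textbook knowledge with earlier results of these data known. The text names all members, Map2k1 and Map2k2, the called genes and the 2 with the smallest p of each functional list, and the 5 genes nearest to Bbc3. Of the marker lists it names the called genes, and of the sex-linked list Xist, which has the smallest p there. For genes named with values outside this rule the text says so. The alternatives were other filters, variance priors and scalings, the mean of a gene's features, each array left out, and a replicate block. A crossed block was added after seeing the data.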

Additional observations from a re-analysis of the deposited data

How the results depend on the processing

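The genes were refitted under 13 alternatives, 112 combinations of gene and alternative in all, since 4 of the 9 genes passed the 50th percentile filter. In 96 of these the direction and the side of the threshold stayed as reported, in 7 Bbc3 kept its direction and lost its call, and in 9 the sign turned, each for Hrk, Bcl2, Pmaip1 or Bak1. The number of these genes called was 1, and became 0 with no filter on dim genes, under the 50th percentile filter (which leaves Bbc3 out), with arrays centred on their medians, after a further quantile normalization and with a replicate block. Bbc3 then had adjusted p-values of 0.109 with no filter, 0.0514 after centring and 0.0524 after quantile normalization in limma. The cause of these losses was not tested. With no filter more genes were tested, and the SE of Bbc3 was 0.0687 instead of 0.0629. Its unadjusted p was then 0.000799 instead of 0.000402 in limma. Leaving out 1 array gave 0 to 1 called. Bbc3 was called without mutant 1 or without mutant 2, and lost without control 1 or without control 2. With 1 control left, the fit takes its spread from the mutant pair and from the prior over all genes. The SD of Bbc3 itself was 0.05 in mutants and 0.06 in controls, and the cause of the lost call was not tested.

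The count over all genes was 143, and 15 with no filter, 238 with a variance trend, and 9 to 881 with 1 array left out (9 when either control was dropped, 262 on dropping mutant 1 and 881 on dropping mutant 2). With arrays centred, Hrk turned to 0.0113 and Bcl2 to 0.00442. With 1 array left out, Hrk ran from -0.0865 to 0.0678, Bcl2 from -0.0796 to 0.0472, Pmaip1 from -0.0622 to 0.0944 and Bak1 from -0.0110 to 0.0988.

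Replicate numbers are shared by the groups, but nothing in the labels pairs the samples. Deviations of same-numbered samples correlated at -0.16 over the genes tested, and with the replicate block 116 genes and 0 of the 9 were called (Bbc3 adjusted p = 0.0762 in limma). The crossed pairing, which is also embryo sex as read from Xist, gave 17 genes and 0 of the 9. With 2 arrays a group and no detection limit at hand, the size of differences of dim genes is uncertain.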
